A study of Mus musculus with 2 samples.

Results

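The genes described here are 32 genes of nerve cells, followed in RNA of mouse embryonic tongue. They encode proteins of the axon's cytoskeleton, of synaptic vesicles and secretory granules, receptors and adhesion molecules, ganglion transcription factors and a few other neuronal proteins. Members were chosen by gene symbol, and their FPKM, the number of fragments scaled by transcript length and library size, was summed over the transcripts of each symbol. Of the 32 members, 31 had rows under their own symbol, and Map2 was found under its older symbol Mtap2 by its RefSeq accessions, out of 22072 symbols in all. At least 1 FPKM in either library, called measured here, was reached by 17 members and by 12383 genes overall.

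Tongues were dissected from embryos of mixed background at embryonic day 12, and RNA was extracted from pools; the design text speaks of 3 pairs of control and mutant samples. The control library carried 1 floxed and 1 wild-type allele of Osr1, a zinc finger transcription factor (Osr1f/+). The mutant library had a null allele opposite the floxed one, and Wnt1cre, a Cre recombinase under Wnt1 control that acts in the neural crest lineage and the dorsal neural tube (Osr1f/-; Wnt1cre). The control label names neither Wnt1cre nor a null allele, so effects of the Cre, of the null allele in other cells and of the loss of Osr1 in the crest cannot be told apart. Each genotype had 1 library, so every ratio below compares 2 libraries, has no replicate check, and no test between genotypes was possible. Depth, estimated from the deposited coverage, was about 18900000 mapped reads for control and 23100000 for mutant RNA. The 95% intervals given with ratios are exact conditional intervals from the approximate number of reads and cover counting error only. Osr1 itself had 56.8 FPKM in control RNA against 18.4 FPKM in mutant RNA. Xist, which coats the inactive X chromosome, was at 61.1 FPKM in control and 86.1 FPKM in mutant RNA.

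Neurons reach the tongue mainly as axons, whose cell bodies lie in cranial sensory ganglia and in the brainstem. Small parasympathetic ganglia also form within the tongue. The neurons of these ganglia and the Schwann cells along the nerves derive largely from the neural crest, the lineage in which Wnt1cre acts. RNA of neuronal genes in a dissected tongue can therefore come from local ganglion cells, from axons, from any adjoining ganglion tissue, and from non-neuronal cells that use the same genes. In such bulk RNA, fewer cells of a type and less RNA per cell cannot be told apart.

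Neuron-defining markers were found at low levels in both libraries. Of 9 neuron-defining markers, 6 reached 1 FPKM in either library and 4 did so in both, namely Tubb3, Stmn2, Nefl and Nefm. Elavl3, Syt1 and Prph were under 1 FPKM in both libraries. The summed level of the 9 markers had a mutant to control ratio of 0.684, and most of that gap came from Tubb3 and Snap25, while Stmn2, Nefm and Prph were listed higher. Over all 32 members the sums were 158 and 151 FPKM, a ratio of 0.959.

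The coding ends of 3 receptor genes are shown first, because the reads of each were divided between transcripts that encode different receptors. Ntrk2 encodes TrkB, the receptor of BDNF, Ntrk3 encodes TrkC, the receptor of neurotrophin-3, and Ret encodes the signalling receptor of the GDNF family. For both Trk genes a truncated form without the kinase domain exists beside the kinase form, and Ret has a short and a long carboxy-terminal tail. Sequences run 5′ to 3′ on the coding strand, from GENCODE M21 (GRCm38) transcripts matched by RefSeq accession. Lower case marks the last 24 shared coding bases, and capitals mark up to 60 coding bases specific to the transcript, without the stop codon.
Ntrk2 NM_008745, truncated: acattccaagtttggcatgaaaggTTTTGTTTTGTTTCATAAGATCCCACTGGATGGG
Ntrk2 NM_001025074, kinase: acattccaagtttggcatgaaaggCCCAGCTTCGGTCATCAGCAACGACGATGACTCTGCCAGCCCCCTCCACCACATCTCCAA
Ntrk3 NM_182809, truncated: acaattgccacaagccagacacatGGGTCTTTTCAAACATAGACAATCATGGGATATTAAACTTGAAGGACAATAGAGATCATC
Ntrk3 NM_008746, kinase: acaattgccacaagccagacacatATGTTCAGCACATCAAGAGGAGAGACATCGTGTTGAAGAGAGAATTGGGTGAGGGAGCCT
Ret NM_001080780, short tail: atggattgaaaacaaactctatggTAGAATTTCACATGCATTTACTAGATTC
Ret NM_009050, long tail: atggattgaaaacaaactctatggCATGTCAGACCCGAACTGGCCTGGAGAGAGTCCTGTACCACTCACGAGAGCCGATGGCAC
The truncated Ntrk2 transcript has a coding length of 1428 nt, of which only 34 nt are its own, against 2463 nt for the kinase form. In Ntrk3 the coding lengths are 1836 and 2475 nt, and in Ret they are 3219 nt for the short and 3345 nt for the long tail.

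Nearly all Ntrk2 and Ntrk3 signal was assigned to the truncated transcripts, in both libraries. Ntrk2 on chromosome 13 (mm9, 58907957 to 59231328) showed 3.86 FPKM in control RNA against 4.20 FPKM in mutant RNA (ratio 1.09, 0.977 to 1.24). Of its approximate reads, 96.4% for control (exact Clopper-Pearson interval 94.4% to 97.8%) and 98.1% for mutant RNA (96.7% to 99%) were assigned to NM_008745. The kinase form had 0.213 and 0.118 FPKM, from about 18 and 13 reads. Ntrk3 (chromosome 7, 85337000 to 85722724) had 1.21 against 1.41 FPKM (ratio 1.17, 0.878 to 1.55). Its truncated transcript held 97.7% of the approximate reads for control (91.9% to 99.7%) and 96.0% for mutant RNA (90.8% to 98.7%), and the kinase form rested on about 2 and 5 reads. The kinase form of Ntrk3 was thus near the floor of 3 reads, and that of Ntrk2 was above it. For a 1 kb transcript this floor is 0.159 FPKM in control RNA against 0.130 FPKM in mutant RNA. Reads were divided among transcripts by estimation. The intervals of the shares treat the assigned reads as counts and do not cover the error of that division.

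Ret was low, and its reads were divided differently in the 2 libraries. The gene (chromosome 6, 118101766 to 118147762) had 0.674 FPKM in control RNA against 0.506 FPKM in mutant RNA (ratio 0.751, 0.503 to 0.946). The short-tail transcript went from 0.597 to 0.208 FPKM (about 83 and 35 reads), and the long-tail transcript from 0.0773 to 0.299 FPKM (about 9 and 42 reads). The short tail thus held 90.2% of the approximate Ret reads for control (82.2% to 95.4%) and 45.5% for mutant RNA (34.1% to 57.2%). These reads were shared out among transcripts by estimation, and the precision of that split was not tested.

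**Figure D1:**
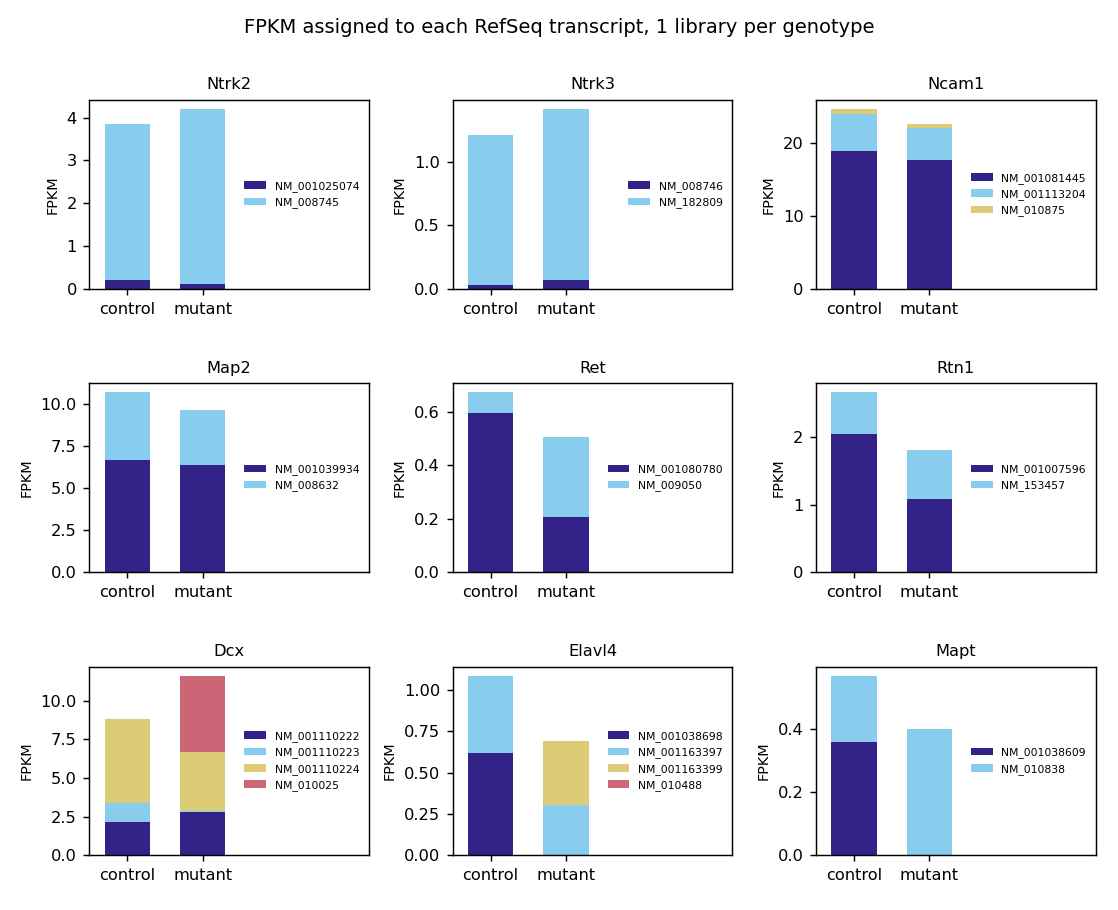
Each panel stacks the FPKM (vertical axis) that was assigned to each RefSeq transcript of 1 member, for the control and the mutant library; colours stand for transcripts. For Ntrk2 and Ntrk3 the stack is almost wholly the truncated transcript in both libraries, while for Ret, Dcx, Elavl4 and Mapt the division differs between the libraries.

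The 2 adhesion molecules were lower in the mutant library. Ncam1, an adhesion molecule that is also made by skeletal muscle, was the second most abundant member (chromosome 9, 49310251 to 49607174), with 24.7 FPKM in control RNA against 22.6 FPKM in mutant RNA (ratio 0.915, 0.869 to 0.96). Its GPI-anchored form NM_010875 had 0.641 and 0.547 FPKM, so most of the signal belonged to its 2 other transcripts. The Ncam1 model overlaps that of Gm11149. L1cam, an adhesion molecule of growing axons, had 0.968 against 0.708 FPKM (ratio 0.732, 0.542 to 0.988). Among 10 measured ligands and receptors of the neurotrophin and GDNF families, 5 were higher and 5 were lower in the mutant library, where 51.2% of all measured genes were higher and 48.8% lower. Of the 5 lower genes, 1 passed the minimum only through the control and could only count as lower. The largest differences were those of Gfra1 and Gfra2, coreceptors of Ret, and of Ntf3, the ligand of TrkC. Gfra1 had 13.2 and 18.2 FPKM (ratio 1.37, 1.26 to 1.5). Gfra2 had 3.64 and 5.24 FPKM (ratio 1.44, 1.22 to 1.69), and Ntf3 had 3.23 and 4.55 FPKM (ratio 1.41, 1.07 to 1.88). All 3 were higher in the mutant library, whereas the receptor Ret was lower.

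**Figure D2:**
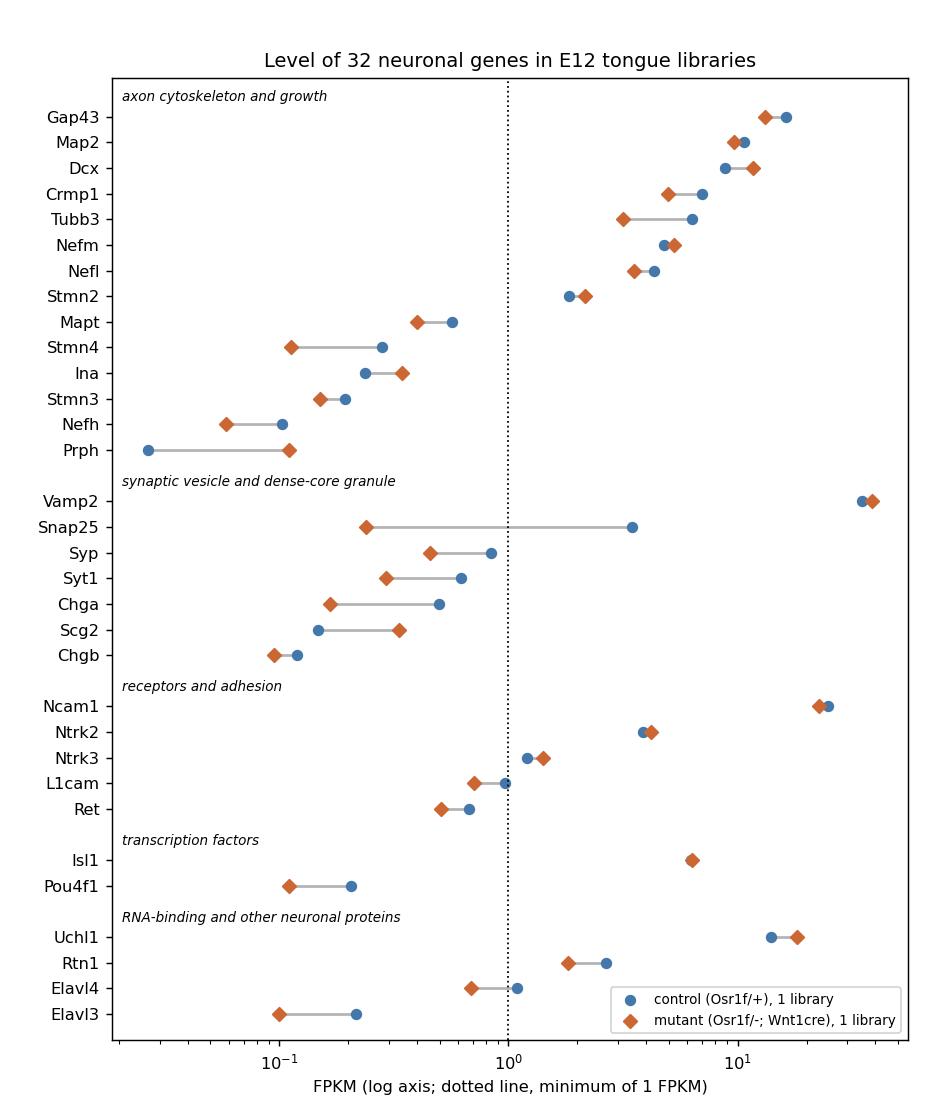
FPKM of the 32 members on a log axis, grouped by role, with circles for the control and diamonds for the mutant library. Vamp2, at 34.9 and 38.5 FPKM, lies at the top of the range, 15 members lie left of the dotted 1 FPKM line in both libraries, and the longest line belongs to Snap25.

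The levels spanned a wide range. In the control library the order of the 5 highest was Vamp2, Ncam1, Gap43, Uchl1 and Map2, at 34.9, 24.7, 16.3, 14.0 and 10.7 FPKM. In the mutant library Uchl1, at 18.1 FPKM, stood above Gap43, at 13.2 FPKM, and Dcx, at 11.6 FPKM, stood above Map2, at 9.62 FPKM. At the other end, Prph, the intermediate filament of peripheral neurons, had 0.0268 and 0.11 FPKM, about 1 and 5 reads (ratio 4.11, 0.457 to 193). Vamp2 exceeded 86.8% of measured genes in the control library, and Tubb3 exceeded 35.2%.

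In the axon cytoskeleton and growth class, 8 of 14 members were measured, of which 5 were lower and 3 higher in the mutant library. The largest difference was that of Tubb3, the neuron-specific beta-tubulin (chromosome 8, 125935464 to 125945910). It had 6.33 FPKM in control RNA against 3.16 FPKM in mutant RNA (ratio 0.50, 0.397 to 0.626) from about 206 and 126 reads. Crmp1, which relays collapse signals in growth cones, had 7.0 against 4.99 FPKM (ratio 0.713, 0.615 to 0.829). Gap43, a membrane protein of growing axons, had 16.3 against 13.2 FPKM (ratio 0.809, 0.702 to 0.931). Map2, a microtubule protein of dendrites and young neurons, had 10.7 against 9.62 FPKM (ratio 0.901, 0.83 to 0.979). For these 4 genes the counting interval lay below 1, as it did for 10.2% of all measured genes; it lay above 1 for 10.7%.

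Dcx differed in the other direction. It encodes doublecortin, a microtubule protein of migrating and young neurons (chromosome X, 140290385 to 140367762). It had 8.79 FPKM in control RNA against 11.6 FPKM in mutant RNA (ratio 1.32, 1.24 to 1.41) from about 1493 and 2415 reads. The summed value hides an uneven division among 4 transcripts of nearly equal length. NM_010025 was listed at 0.00175 FPKM in control RNA against 4.91 FPKM in mutant RNA, and NM_001110223 at 1.22 and 0.00600 FPKM. Coding lengths of the 4 transcripts run from 1080 to 1098 nt, and only the gene sum is read here. With the most abundant transcript alone in place of the sum, the log2 ratio of Dcx was −0.40 and not 0.37. Dcx, L1cam and Syp are X-linked, and the higher Xist of the mutant library accompanied a higher Dcx but a lower L1cam and Syp; its part in these values was not tested.

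The neurofilament genes were listed in different directions, each within counting error. Nefl and Nefm, the light and medium neurofilament chains, lie 31.8 kb apart on chromosome 14 (68701941 to 68705794 and 68737602 to 68743061). Nefl had 4.31 FPKM in control RNA against 3.51 FPKM in mutant RNA (ratio 0.815, 0.649 to 1.01). Nefm had 4.79 against 5.26 FPKM (ratio 1.10, 0.942 to 1.28). Both intervals include 1, so at this depth neither gene was distinguishable between the libraries. Nefh, the heavy chain, which is added as axons mature, had 0.102 and 0.0584 FPKM, about 8 and 5 reads. Ina, the alpha-internexin gene, had 0.236 and 0.344 FPKM, and its model overlaps that of Nt5c2.

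Among the stathmins, which bind free tubulin, only Stmn2 was measured, with 1.84 FPKM in control RNA against 2.15 FPKM in mutant RNA (ratio 1.17, 0.84 to 1.62). Stmn3 had 0.194 and 0.151 FPKM from about 4 reads in each library. Stmn4 had 0.28 and 0.112 FPKM from about 7 and 3 reads (ratio 0.40, 0.0584 to 1.53). Mapt, which encodes tau, had 0.567 against 0.399 FPKM (ratio 0.703, 0.458 to 1.03). Its reads were assigned to 2 transcripts in the control and to 1 in the mutant library, again by estimation. In the related list of axon and growth cone genes, 24 of 28 were measured, of which 19 were lower and 5 higher, with a median log2 ratio of −0.09. The median over all measured genes was 0.0035. Of the 19 lower genes, 1 passed the minimum only through the control and could only count as lower. For 13 of the 24 the counting interval lay below 1 and for none above 1. Of all measured genes 48.8% were lower, 10.2% had an interval below 1 and 10.7% had one above 1. Several of the 13 were abundant genes with narrow intervals, and their ratios came as near to 1 as 0.944 (0.902 to 0.987). None of the 24 differed by 1.5-fold. At 1.2-fold 3 were lower and none was higher, against 3.46% and 4.77% of all measured genes. Tagln3 and Map1b had ratios of 0.706 (0.578 to 0.867) and 0.80 (0.771 to 0.831).

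**Figure D3:**
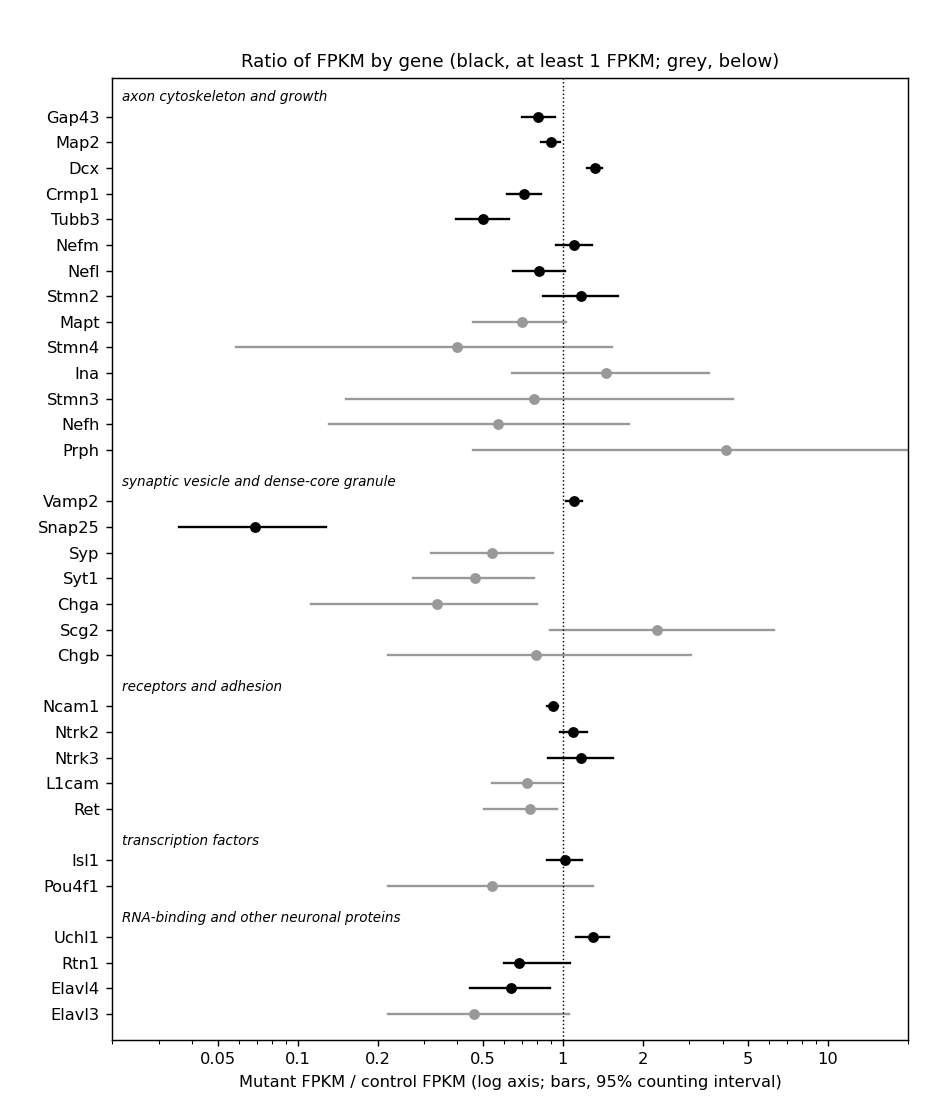
Ratio of mutant to control FPKM for each member on a log axis, grouped by role, with the 95% counting interval as a bar. Black marks members of at least 1 FPKM in either library and grey those below; the bars of Snap25 and Tubb3 end left of 1, that of Dcx begins right of it, and many grey bars cross 1 (the bar of Prph runs past the axis).

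In the synaptic vesicle and dense-core granule class only 2 of 7 members were measured, and they differed in opposite directions. Snap25 encodes a membrane protein of the complex that fuses vesicles (chromosome 2, 136539186 to 136608164). It had 3.45 FPKM in control RNA against 0.239 FPKM in mutant RNA (ratio 0.0692, 0.0358 to 0.128) from about 138 and 12 reads. This was the largest difference of any measured member, and with a value under 1 FPKM in the mutant library Snap25 passed the minimum only through the control. Vamp2, its vesicle partner, which many cell types also use for secretion, had 34.9 against 38.5 FPKM (ratio 1.10, 1.03 to 1.18). It lies on chromosome 11, 68902030 to 68905883.

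Of the 5 unmeasured vesicle and granule members, 4 were listed lower and 1 higher in the mutant library. Among all genes between 0.1 and 1 FPKM, 49.6% were lower. Syp, the vesicle protein synaptophysin, had 0.840 FPKM in control RNA against 0.455 FPKM in mutant RNA (ratio 0.542, 0.318 to 0.917). Syt1, the calcium sensor of release, had 0.623 and 0.291 FPKM (ratio 0.467, 0.272 to 0.775), with a model that overlaps Gm5136. Chga, a granin of dense-core granules, had 0.496 and 0.166 FPKM (ratio 0.334, 0.112 to 0.797) from about 18 and 7 reads. For all 3 the interval lay below 1, as it did for 4.25% of all 3248 genes between 0.1 and 1 FPKM. Chgb had 0.119 and 0.0944 FPKM from about 6 reads in each library. Scg2, another granin, was listed higher in the mutant library, at 0.147 and 0.331 FPKM, with an interval of 0.892 to 6.24.

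Other synapse and transmitter genes were mostly too low to be measured. Of 35 on the related list, 10 reached the minimum, 6 higher and 4 lower, with a median log2 ratio of 0.03. The other 25 were under 1 FPKM, of which 18 were lower and 7 higher in the mutant library. Their intervals lay below 1 in 4 genes and above 1 in none. Among all 3248 genes between 0.1 and 1 FPKM, 49.6% were lower and 50.4% higher. In that range 4.25% had an interval below 1 and 3.76% had one above 1. Some of the 25 lay under 0.1 FPKM, outside that range, and were listed lower on as little as about 1 read against 0. The 4 with an interval below 1, named after their values were seen, were Syn1, Cplx1, Slc18a3 and Dbh, with ratios of 0.43, 0.219, 0.438 and 0.519. Syn1 and Cplx1 act at synaptic vesicles, Slc18a3 loads acetylcholine into vesicles, and Dbh makes noradrenaline.

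Of the 2 transcription factors, Isl1 did not differ beyond counting error. Isl1 acts in sensory, sympathetic and motor neurons and also in mesenchyme and epithelium of the jaw (chromosome 13, 117088478 to 117099896). It had 6.25 FPKM in control RNA against 6.34 FPKM in mutant RNA (ratio 1.01, 0.868 to 1.18). Pou4f1, a factor of sensory ganglion neurons, had 0.205 and 0.111 FPKM, from about 15 and 10 reads, a ratio of 0.54 (0.219 to 1.3). In the related list of ganglion transcription factors, 12 of 24 with a row were measured (Drgx was not matched), 7 higher and 5 lower. Of the 5 lower factors, 1 passed the minimum only through the control and could only count as lower. Tlx1 had a ratio of 0.799 (0.669 to 0.951), and Ebf3, which is not restricted to neurons, had 1.35 (1.3 to 1.41). Another 5 of the listed factors, Tlx3, Pou4f2, Neurog1, Neurog2 and Neurod4, were at 0 in both libraries.

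The RNA-binding and other neuronal proteins were divided. Uchl1, an abundant ubiquitin hydrolase of neurons (chromosome 5, 67067360 to 67078473), had 14.0 FPKM in control RNA against 18.1 FPKM in mutant RNA (ratio 1.29, 1.12 to 1.5). Elavl4, which stabilises neuronal messages, had 1.09 against 0.689 FPKM (ratio 0.635, 0.447 to 0.893), and passed the minimum only through the control. Its relative Elavl3 had 0.215 and 0.0991 FPKM (0.218 to 1.05 around a ratio of 0.46). Rtn1, a reticulon of the endoplasmic reticulum, had 2.66 and 1.81 FPKM. The interval of its read ratio, 0.599 to 1.07, included 1. Its short transcript NM_001007596 had 2.04 and 1.08 FPKM (interval of the ratio 0.351 to 0.822), while the long NM_153457 had 0.618 and 0.729 FPKM (0.776 to 1.8). This division was again by estimation, and the whole gene had about 100 and 98 reads. With products of coverage and length in place of FPKM, the log2 ratio of Rtn1 was −0.19 and not −0.38. Of 14 measured genes in the related list, 6 were higher and 8 lower, and Celf4, Rbfox1 and Eno2 had ratios of 0.669, 1.43 and 0.781. Rest, the repressor of neuronal genes outside neurons, had 17.5 and 17.0 FPKM.

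Counted together, 9 of the 17 measured members were lower and 8 higher in the mutant library, with a median log2 ratio of −0.12. At least 1.5-fold on the scale of FPKM plus 1, 2 members (Snap25 and Tubb3) were lower and none was higher, where 0.581% and 0.896% of all measured genes passed. At 1.2-fold, 6 were lower and 2 were higher (Dcx and Uchl1), against 3.46% and 4.77% of all genes. The 6 were Snap25, Tubb3, Crmp1, Rtn1, Elavl4 and Gap43. Snap25 and Elavl4 could only count as lower, given the minimum, and over the 15 members at 1 FPKM in both libraries the median was 0.02, with 7 lower and 8 higher. Without Snap25, or without Map2, the median was −0.05. On the TPM scale, where 25 members passed the minimum, 5 were at least 1.5-fold lower. The members were selected with earlier results of these libraries known, so the counts are a description.

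**Figure D4:**
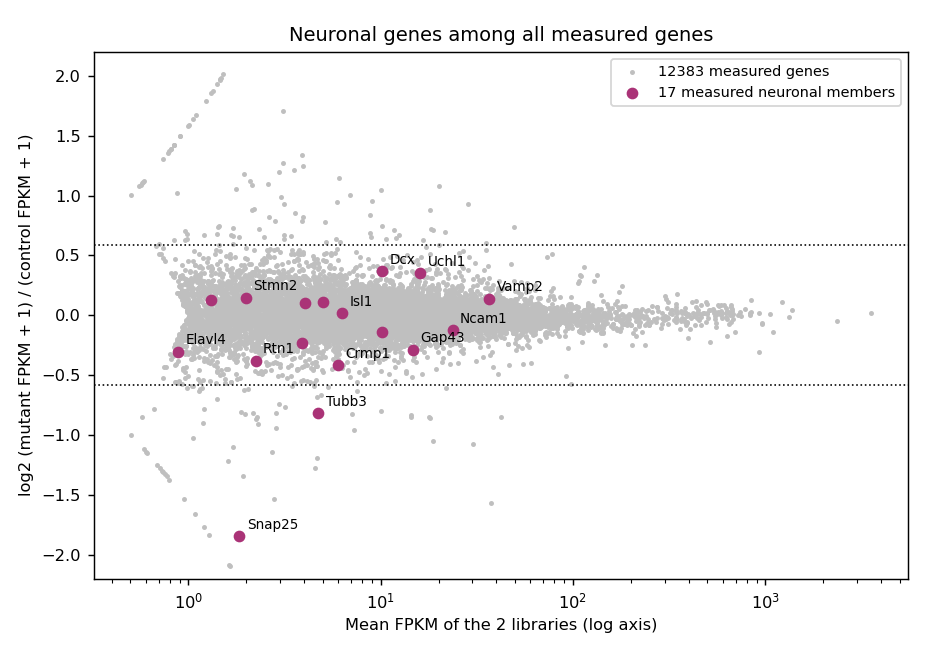
Mean FPKM of the 2 libraries (log axis) against the log2 ratio of FPKM plus 1 for 12383 measured genes (grey) and 17 measured members (purple), with dotted lines at 1.5-fold; 18 genes lie outside the axis. Tubb3 and Snap25 lie below the lower line, and the other 15 members lie between the lines.

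The 15 members under 1 FPKM were not used for those counts. In them 12 were lower and 3 higher in the mutant library, and the interval lay below 1 in 5 (Syp, Syt1, Chga, L1cam and Ret) and above 1 in none. Among the 3248 genes of that range given above, 49.6% were lower and 50.4% higher, 4.25% had an interval below 1 and 3.76% had one above 1. Each of the 15 rested on 1 to 97 reads in a library. Over all 32 members, 21 were lower and 11 higher. Of all measured genes 48.8% were lower, and 49.6% of those between 0.1 and 1 FPKM. No share was computed over both together.

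Promoters are shown for 3 members whose counting intervals lay clear of 1, 2 that were lower and 1 that was higher in the mutant library. They were picked by hand with the values known, and other such members, among them Dcx, Elavl4 and Map2, also had windows. The RefSeq promoter table (GRCm38.p6) held 29 windows for 20 of the members. Each sequence gives the 250 bases before the transcript start, and capitals mark matches, on either strand, to any of 5 motifs. The motifs were GCTACTG, the core that Odd-skipped zinc fingers are known to bind, CAGCTG, an E-box of proneural factors, TAATTA, a homeodomain core, TTCAGCACC, the left part of the RE1 element bound by Rest, and GGGCGG, the GC box.
Tubb3, chr8:123411303-123411552, plus strand: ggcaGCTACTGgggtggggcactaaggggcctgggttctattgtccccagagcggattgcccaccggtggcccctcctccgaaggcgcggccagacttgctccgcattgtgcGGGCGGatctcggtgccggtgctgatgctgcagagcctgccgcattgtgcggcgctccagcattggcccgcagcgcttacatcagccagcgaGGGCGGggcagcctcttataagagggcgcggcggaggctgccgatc
Crmp1, downstream start, chr5:37245514-37245763, plus strand: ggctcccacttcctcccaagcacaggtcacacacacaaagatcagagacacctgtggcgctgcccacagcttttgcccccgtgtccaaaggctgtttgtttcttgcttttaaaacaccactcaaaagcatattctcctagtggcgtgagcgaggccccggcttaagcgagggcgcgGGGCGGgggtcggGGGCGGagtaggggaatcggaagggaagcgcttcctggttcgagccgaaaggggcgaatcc
Uchl1, chr5:66675871-66676120, plus strand: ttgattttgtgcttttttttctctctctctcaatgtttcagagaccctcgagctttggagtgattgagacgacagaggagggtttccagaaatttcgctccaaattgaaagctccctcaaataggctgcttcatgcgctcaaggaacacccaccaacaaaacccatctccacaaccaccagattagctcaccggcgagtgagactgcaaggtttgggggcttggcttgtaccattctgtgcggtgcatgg
The Tubb3 window held 1 GCTACTG and GC boxes, and that of Uchl1 held none of the 5 motifs. For Crmp1 the downstream start is shown, since all its approximate reads belonged to NM_007765. This transcript begins 3712 nt after the other Crmp1 transcript in the mm9 rows and 3706 nt after it in the promoter table. The upstream Crmp1 window also held GCTACTG, and the downstream one did not. GCTACTG was present in 4 of the 29 member windows, 2 of which are overlapping Elavl4 windows, and in 3.03% of all 32851 windows. CAGCTG was present in 8 of the 29 and in 13.0% of all, TAATTA in 4 and in 4.84%, and GGGCGG in 16 and in 32.7%. TTCAGCACC was in 0 of the 29 and in 0.301% of all. These matches describe letters in the windows and no binding was measured. The members with GCTACTG were Crmp1, Elavl4 and Tubb3. Because the windows shown were picked by hand, they cannot link a motif to a direction of difference.

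Marker lists of other cells are given by their counts, to be read against the 48.8% of all measured genes that were lower and the 51.2% that were higher. Of 8 measured Schwann lineage markers 6 were lower and 2 higher in the mutant library, and their summed level over the list of 12 was 74.8 FPKM in control RNA against 66.2 FPKM in mutant RNA. Of the 6 lower markers, 1 passed the minimum only through the control and could only count as lower. Mbp had 4.14 and 1.33 FPKM, Fabp7 had 1.66 and 2.57 FPKM, and Sox10, which defines the lineage, had 4.51 and 3.94 FPKM. For Mbp, summed over 8 transcripts, the FPKM ratio of 0.321 lay outside the interval of its read ratio, 0.329 to 0.501. No Schwann marker was at 0. Red cell markers were lower in 5 of 5 measured, with sums of 1314 and 1072 FPKM, epithelial markers in 6 of 7, with sums of 118 and 103 FPKM, and mesenchyme markers in 5 of 7, with sums of 736 and 681 FPKM. Skeletal muscle markers were higher in 5 of 9 measured, with sums of 581 and 611 FPKM. On the scale of FPKM plus 1, 2 of the 8 measured Schwann markers were at least 1.5-fold lower and none was higher. Of all measured genes 0.581% were that much lower and 0.896% higher. No measured red cell, epithelial, mesenchyme or muscle marker differed by 1.5-fold, and no muscle marker by 1.2-fold. Of 9 markers of central nervous system progenitors 8 were under the minimum, and the sums were 2.87 and 4.17 FPKM; Olig2 was at 0 in the control. The part of these cell types in the neuronal values was not tested.

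**Figure D5:**
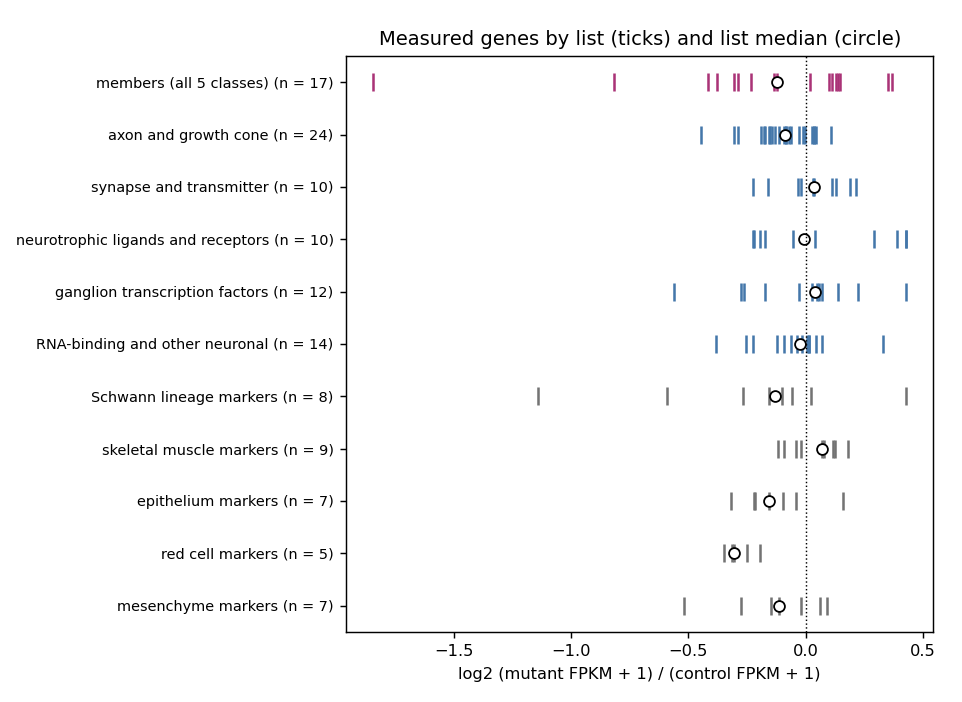
Log2 ratio of FPKM plus 1 (horizontal axis) of the measured genes of each list (ticks) with the list median (circle) for the neuronal members, 5 related lists and the 5 marker lists with more than 1 measured gene. The members spread from −1.84 (Snap25) to 0.37 (Dcx), more widely than the 24 axon and growth cone genes, which lie mostly to the left of 0.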

How the data were processed

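RNA of 1 control and 1 mutant tongue library was amplified with the NuGEN Ovation RNA-Seq v2 assay, per the labels' protocols. Mapping used Bowtie 0.12.7 and TopHat 1.4.1 on mm9, tools and build listed in the submitters' processing notes. The deposited values are, per the file headers, FPKM per RefSeq transcript in a Cufflinks layout, with a coverage signal that is not scaled for depth. The Cufflinks version is not given in the sources used here.

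Values in FPKM were summed per symbol over 28107 rows. Measured genes had 1 FPKM or more in at least 1 library and status OK in all rows of both, which removed 204 symbols for their status. Log2 ratios used FPKM plus 1, which understates differences of low genes, while plain ratios are of FPKM. The lowest products of coverage and length, between 30 and 70 bases in single-transcript genes of at least 1000 nt, clustered at 47.4 bases. This was taken as 1 read and gave approximate reads, their exact (Clopper-Pearson) 95% intervals and a floor of 3 reads. Amplified reads are not independent molecules. In genes of several transcripts, the interval is that of the reads. Coordinates are mm9, counted from 1.

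Members and lists were chosen with earlier results of these data known. All members were named, with the 3 measured genes of each related list that had the largest log2 ratios, some of which are not reported here; other exceptions are Sox10, Rest, Syn1, Cplx1, Slc18a3, Dbh, Xist, the genes at 0, and those named for a marker list. The interval computation was tested on simulated Poisson reads of single-transcript genes, the model that the interval assumes. That test therefore covers neither amplification nor the division of reads among transcripts. Python 3.11.15, numpy 2.4.6, pandas 2.3.3, scipy 1.17.1 and matplotlib 3.10.9 were used. The alternatives were pseudocount, minimum, row status, scaling, transcript choice, coverage, overlapping models and members.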

Additional observations from a re-analysis of the deposited data

How the results depend on the processing

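No paired analysis was possible because each genotype had 1 library. Under 14 alternatives, 3 of them chosen after seeing the data, no member that passed the minimum of the setting was at least 1.5-fold higher. Members under the minimum were not counted. With a pseudocount of 0.1 FPKM, Scg2 and Prph among them were past 1.5-fold higher, and others, such as Chga and Syt1, were past 1.5-fold lower. The count of measured members at least 1.5-fold lower, 2 as reported, was 3 with a pseudocount of 0.1 FPKM, 1 with a pseudocount of 5 FPKM, with a minimum of 5 FPKM, without Snap25 and with the minimum in both libraries, and 5 on the TPM scale, where 25 members passed the minimum. The median log2 ratio of the measured members ran from −0.27 (TPM) to 0.02 (minimum in both libraries), so its sign depends on the minimum. Of 224 recomputed member values, 218 stayed within the half-width of their counting interval. That interval is of the plain read ratio and is wide for genes of few reads, so for them the count cannot show stability. Chga, for example, was within it although its log2 ratio went from −0.36 to −1.17 with a pseudocount of 0.1 FPKM. The sign changed in 3 of the 224 values, with the most abundant transcript alone for Dcx (−0.40) and Mapt (0.21) and with quantile normalization for Isl1 (−0.00029). Depth limits the 15 members under 1 FPKM, and no setting adds a replicate.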
